A study of Mus musculus with 15 samples.

Results

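The genes of regulated secretion described here are 9 of the 34910 genes that the transcripts of the count table sum to. They are the GTPases Rab3a, Rab3b, Rab3c, Rab3d, Rab27a and Rab27b, the GTPase-activating subunits Rab3gap1 and Rab3gap2, and the exchange factor Rab3il1. Rab3b leads the set because its RNA was higher in 2 groups with a hairpin against LINE-1 than in the control group, so those values are a description and carry no test. The other 8 genes were chosen by name as its closest relatives and regulators. All 9 were among the 15141 genes that passed the filter on low counts.

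The cells were wild type mouse neural progenitor cells, dividing precursors of neurons and glia, kept with FGF2, EGF and heparin. Plasmids with EGFP and a short hairpin RNA (shRNA), processed in the cell to a guide that silences matching RNAs, were introduced, and sorted GFP-positive cells were harvested 3 days later. LINE-1 sequences are repeats of the genome that spread by copying their RNA back into DNA. There were 5 groups of 3 libraries, named by their hairpin: shControl, shLINE_Orf1, shLINE_Orf2, shLINE_MdV_I, and shLINE_Orf1+LINE-1, in which a full-length LINE-1 was introduced with the Orf1 hairpin. All groups, the control included, carried an EGFP plasmid and had passed the same sort. The series describes hairpins against young and against old LINE-1, and its labels do not say to which class shLINE_Orf2 and shLINE_MdV_I belong. The labels do not say that replicates are separate cultures. The p-values therefore measure the spread between these libraries, which may be technical.

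Libraries held 39204327 to 51070601 gene counts, and every pair of replicates differed by more than counting noise. All 9 progenitor markers were present in shControl, from 18.6 ± 1.72 CPM of Pax6 to 3670 ± 878 CPM of Fabp7, with Sox2 at 203 ± 16.8 and Nes at 363 ± 39.4 (CPM, counts scaled to a common library size, SD, n = 3). Of the neuronal markers, Map2 stood at 400 ± 91 CPM and the others between 0.17 and 11.2, and of the astrocyte markers Sparcl1 and Aldh1l1 stood at 429 ± 43.9 and 229 ± 9.33 CPM and the others between 3.5 and 8.67. The 5 microglial markers summed to 0.845 to 2.44 CPM over the libraries, with P2ry12 at 1.52 ± 0.252 CPM in shControl and Aif1 listed at 0 in every library. Of the libraries, shLINE_Orf1 replicate 1 and shControl replicate 2 stood apart on the first principal component (scores of 75.9 and 24.3, the others between -18.8 and 4.72). In these the mitochondrial mRNAs took 3.61% and 2.02% of counts, against 1.36% to 1.97% elsewhere. LINE-1 RNA was not analysed here, so the hairpins' effect on their target is not measured.

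Rab proteins are small GTPases that mark the membranes of one compartment. With GTP bound they recruit effectors, and with GDP bound they are taken off the membrane. Rab3 and Rab27 proteins sit on synaptic vesicles, dense core vesicles and other secretory organelles, where they act in docking and in priming for release. Exchange factors such as Rab3il1 load the GTP, and the complex of Rab3gap1, the catalytic subunit, with Rab3gap2 speeds its hydrolysis. The prenyl groups that hold a Rab protein in the membrane are attached to cysteines at its C-terminus.

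The coding ends of 5 of the 6 GTPases are shown because they hold the cysteines of the membrane anchor and differ between members (the sequence of Rab27b was not used here): the last 33 coding bases, stop codon included, 5′ to 3′, from the GENCODE M21 transcripts (GRCm38), with the 2 cysteine codons in capitals.
Rab3a: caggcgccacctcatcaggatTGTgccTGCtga
Rab3b: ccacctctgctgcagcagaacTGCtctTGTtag
Rab3c: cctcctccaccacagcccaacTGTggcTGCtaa
Rab3d: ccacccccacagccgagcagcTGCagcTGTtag
Rab27a: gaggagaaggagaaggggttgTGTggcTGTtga
Each of the 5 sequences ended in a cysteine, 1 other residue, a cysteine and the stop.

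The loop that binds the phosphates of GTP is shown next, since it is the conserved core of the same proteins. The 42 bases below are written 5′ to 3′ with the codons of the loop, from its first glycine to its lysine and the serine or threonine after it, in capitals.
Rab3a: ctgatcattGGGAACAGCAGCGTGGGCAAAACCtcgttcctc
Rab3b: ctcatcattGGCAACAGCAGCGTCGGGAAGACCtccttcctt
Rab3c: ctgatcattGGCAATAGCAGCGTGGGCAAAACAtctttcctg
Rab3d: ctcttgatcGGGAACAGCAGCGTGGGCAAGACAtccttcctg
Rab27a: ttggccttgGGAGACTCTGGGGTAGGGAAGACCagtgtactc
Over these bases Rab3b differed from Rab3a at 7 positions, from Rab3c and from Rab3d at 8 each, and from Rab27a at 20. Over whole coding sequences Rab3b was 75.7% identical to Rab3a, 72.4% to Rab3c, 76.6% to Rab3d and 51.3% to Rab27a. The longest stretch it shared without a difference was 33 bases with Rab3d, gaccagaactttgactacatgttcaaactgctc, which starts at coding base 46 of both genes. Of the 1023 runs of 31 bases in the main Rab3b transcript, 3 occurred in another gene, and of the 1333 in that of Rab3a none did. In Rab3c the share was higher, with 101 of 2368 runs found in other genes, and in Rab27a it was 64 of 2949.

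Rab3b encodes the Rab3 form that was the most abundant here. The gene lies on chromosome 4 from 108879063 to 108943324 (GRCm38, plus strand). Per transcript length, as TPM (a transcript's share after division by its length), its level in shControl was 330 ± 21.1 (SD, n = 3), above 96.5% of the genes tested. Rab3a followed at 22.2 ± 3.19, Rab3gap2 at 21.6 ± 7.49 and Rab3gap1 at 18.7 ± 2.72 TPM, and these 3 neighbours in the order did not differ beyond their spread. Rab3c stood at 5.90 ± 0.716, Rab3il1 at 3.86 ± 0.602, Rab3d at 1.73 ± 0.319, Rab27b at 1.13 ± 0.0829 and Rab27a at 0.268 ± 0.108 TPM. With the merged exons of a gene as its length, Rab3d took the rank of Rab3c and Rab3c that of Rab3d. Among the 4 Rab3 GTPases, Rab3b made up 91.7% ± 0.608 of the TPM in shControl and 94.2% to 95.1% on average in the other groups.

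Rab3b RNA was higher in every library with a LINE-1 hairpin than in every control library. Its levels in shControl were 235, 262 and 245 CPM. In shLINE_Orf1 they were 437, 434 and 403 CPM, and in shLINE_Orf2 381, 358 and 385 CPM. These 6 libraries are those by which the gene was chosen. The same direction was seen in the other groups, with 374, 358 and 422 CPM in shLINE_MdV_I and 417, 431 and 452 CPM in shLINE_Orf1+LINE-1. All 4 comparisons share the same 3 control libraries. The ratio of the mean to that of shControl was 1.72 in shLINE_Orf1, 1.51 in shLINE_Orf2, 1.56 in shLINE_MdV_I and 1.75 in shLINE_Orf1+LINE-1.

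On the log2 scale of the edgeR fit, Rab3b was 0.78 ± 0.09 higher in shLINE_Orf1 than in shControl (SE; 95% interval 0.59 to 0.97). The difference from shControl was 0.60 ± 0.09 (0.41 to 0.79) in shLINE_Orf2, 0.64 ± 0.09 (0.45 to 0.83) in shLINE_MdV_I and 0.81 ± 0.09 (0.62 to 1.0) in shLINE_Orf1+LINE-1. The intervals make no allowance for the choice of Rab3b by libraries compared here, and they are no test. In each of these comparisons none of the other 8 members passed the adjusted p of 0.05, where 0.178%, 0.192%, 0.594% and 0.139% of all genes passed. Rab3b was past that level as well. This is no test of Rab3b and nothing is read from it, since the control libraries helped to choose the gene. The pass in shLINE_Orf2 was lost without shControl replicate 1 or 3 or without any 1 library of shLINE_Orf2, and those in shLINE_Orf1, shLINE_Orf2 and shLINE_MdV_I when the fit held only the 2 groups compared. In CPM the 2 libraries that stood apart had the highest Rab3b level of their groups (437 in shLINE_Orf1 and 262 in shControl). In TPM they had the lowest (431 and 306), so their place depends on the scale. Without both of them the mean of Rab3b was 240 CPM in shControl and 419 CPM in shLINE_Orf1. In sorted bulk cells, more Rab3b RNA per cell and more cells that hold it cannot be told apart.

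**Figure D1:**
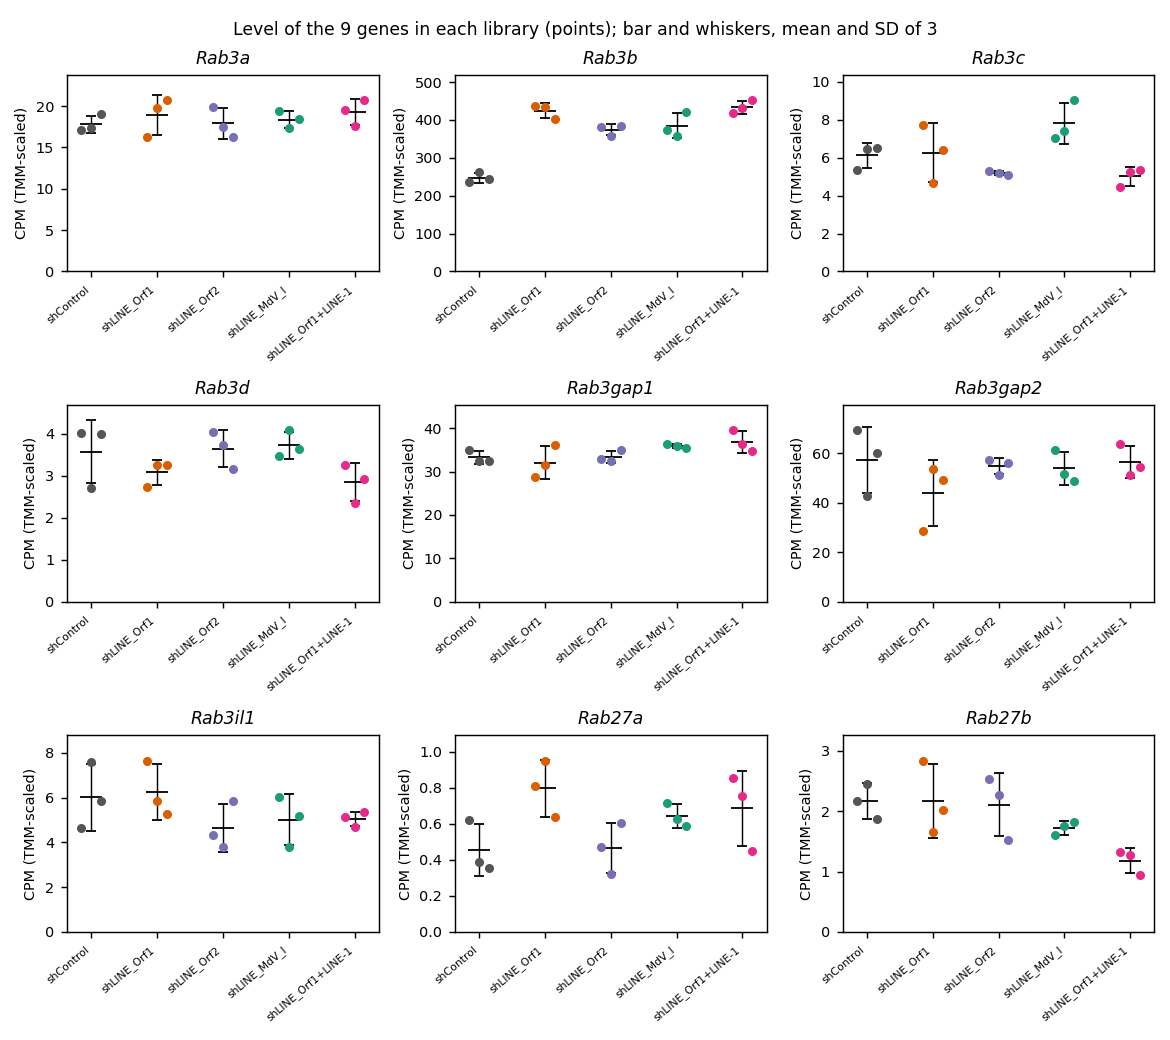
Level of each of the 9 genes in CPM (vertical axes, linear, from 0) in the 5 groups; points are libraries, the bar and whiskers the mean and SD of 3. For Rab3b the control libraries lie at 235 to 262 CPM and all others at 358 to 452 CPM, while for the other genes most groups overlap.

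Among the hairpin groups the levels of Rab3b lay closer together. Ordered by mean, they were 433 ± 17.2 CPM in shLINE_Orf1+LINE-1, 425 ± 18.7 in shLINE_Orf1, 385 ± 33.5 in shLINE_MdV_I and 375 ± 14.3 in shLINE_Orf2 (SD, n = 3 each). Neighbours in this order overlapped. The added LINE-1 went with no detectable difference: shLINE_Orf1+LINE-1 was 0.03 ± 0.09 above shLINE_Orf1 in log2, with an interval of -0.16 to 0.22. Relative to shLINE_Orf1, the log2 difference of Rab3b was -0.18 ± 0.09 in shLINE_Orf2, whose libraries all lay lower, and -0.14 ± 0.09 in shLINE_MdV_I, whose libraries overlapped. shLINE_MdV_I and shLINE_Orf2 differed by 0.04 ± 0.09. All libraries of shLINE_Orf1+LINE-1 lay above those of shLINE_Orf2, by 0.21 ± 0.09. The comparison of shLINE_Orf1+LINE-1 with shLINE_MdV_I is the only one in which neither group chose the gene, and there Rab3b did not pass the test (log2 difference 0.17 ± 0.09, interval -0.02 to 0.36, adjusted p = 0.649, edgeR). With limma-voom and quality weights its adjusted p was 0.0214, in a setting where 11% of all genes passed.

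Both main Rab3b transcripts were higher with the hairpins. Rab3b-201, of 1053 bases, held 73.1% ± 0.742 of the gene's counts in shControl, and Rab3b-202, of 3327 bases, held 26.4% ± 0.923. In shControl Rab3b-201 stood at 181 ± 10.1 CPM, and its mean in the 4 hairpin groups was 1.74 (shLINE_Orf1), 1.52 (shLINE_Orf2), 1.57 (shLINE_MdV_I) and 1.76 (shLINE_Orf1+LINE-1) times that value. Rab3b-202 stood at 65.2 ± 3.08 CPM, with ratios of 1.64, 1.49, 1.5 and 1.72 in the same order. The share of Rab3b-201 stayed between 72.2% and 74.4% in all 15 libraries. The third coding transcript, Rab3b-203, never held more than 1.12% of the counts, and Rab3b-204, a processed transcript, held at most 0.06%. The division of counts among transcripts is an estimate by RSEM. A pseudogene and an antisense gene overlap Rab3b on the other strand, and as the labels do not say whether strand was kept, their reads cannot be told apart from it.

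**Figure D2:**
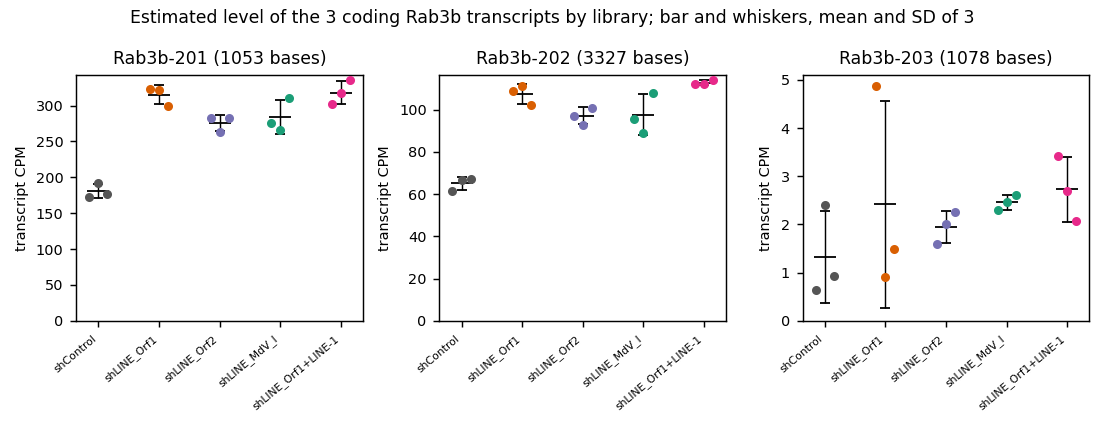
Estimated CPM of the 3 coding Rab3b transcripts by library (points; bar and whiskers, mean and SD of 3), each panel with its own linear axis from 0. The short Rab3b-201 and the long Rab3b-202 are both lowest in shControl (means of 181 and 65.2 CPM), and Rab3b-203 lies under 5 CPM throughout.

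Rab3a, the main Rab3 protein of synaptic vesicles in the brain (chromosome 8, 70754679 to 70758677), was level across the groups. Its libraries ranged from 17.1 to 19.0 CPM in shControl and from 16.2 to 20.7 CPM over all 15. No pair of groups was separate for Rab3a. Its largest difference from shControl was 0.11 ± 0.12 in log2, in shLINE_Orf1+LINE-1 (interval -0.14 to 0.37, adjusted p = 0.865, edgeR). In shLINE_Orf1, where Rab3b was 0.78 higher, Rab3a differed by 0.09 ± 0.12 (interval -0.17 to 0.34). Mpv17l2 overlaps Rab3a on the other strand.

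Rab3c, a relative of Rab3a found in neurons and endocrine cells (chromosome 13, 110054187 to 110280996), was highest in shLINE_MdV_I. Its levels were 5.37, 6.46 and 6.52 CPM in shControl, 7.73, 4.66 and 6.40 in shLINE_Orf1, and 5.30, 5.19 and 5.07 in shLINE_Orf2. In shLINE_MdV_I they were 7.01, 7.39 and 9.02 CPM, and in shLINE_Orf1+LINE-1 4.44, 5.26 and 5.32 CPM. The shLINE_MdV_I libraries lay above all those of shControl, shLINE_Orf2 and shLINE_Orf1+LINE-1 and overlapped those of shLINE_Orf1. Against shLINE_MdV_I, shLINE_Orf1+LINE-1 was at -0.64 ± 0.17 in log2, which did not pass the test (adjusted p = 0.135, edgeR). That comparison passed for Rab3c with DESeq2 (adjusted p = 0.0265), with limma-voom (0.00272), with the fit limited to the groups compared (0.0149) and without the 2 libraries that stand apart (0.0249, edgeR in both). In these settings 2.32%, 11%, 8.21% and 3.73% of all genes passed in that comparison. The difference between shLINE_MdV_I and shLINE_Orf2 was 0.59 ± 0.17 (adjusted p = 0.379 with edgeR, 0.0199 with limma-voom, which called 3.44% of all genes). In this respect the order of the groups for Rab3c was not that of Rab3b, and over the 15 libraries the Pearson correlation of their log2 CPM was -0.0663, a description that shares the libraries' groups.

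Rab3d, the Rab3 protein best known from exocrine and endocrine granules (chromosome 9, 21907491 to 21918192), ranged from 2.36 to 4.08 CPM. Its means ran from 2.85 ± 0.449 CPM in shLINE_Orf1+LINE-1 to 3.73 ± 0.321 in shLINE_MdV_I, and these groups did not overlap. The difference was -0.39 ± 0.19 in log2 and did not pass (adjusted p = 0.607 with edgeR, 0.0453 with limma-voom, where 11% of all genes passed). Against shControl, with 4.02, 2.70 and 3.99 CPM, no group was separate. The low control value is that of replicate 2, which stands apart in the libraries as a whole.

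Rab27a, which acts in the release of melanosomes, lytic granules and exosomes (chromosome 9, 73044854 to 73097629), was close to the limit of what was counted. Its libraries held between 16 and 40 counts. It stood at 0.623, 0.389 and 0.357 CPM in shControl and at 0.811, 0.952 and 0.636 CPM in shLINE_Orf1, just without overlap. The log2 difference was 0.80 ± 0.35, as large as that of Rab3b, but with an interval of 0.06 to 1.55 and an adjusted p of 0.447 (edgeR). In shLINE_Orf2 the difference of Rab27a from shControl was 0.03 ± 0.36, where that of Rab3b was 0.60.

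Rab27b, the second Rab27 protein and the one known from platelets and secretory cells, was lowest in shLINE_Orf1+LINE-1. Its levels there were 1.32, 1.28 and 0.947 CPM, against 2.17, 2.46 and 1.87 CPM in shControl and 2.84, 1.65 and 2.02 CPM in shLINE_Orf1. The libraries of shLINE_Orf1+LINE-1 lay below those of each other group. The log2 difference was -0.87 ± 0.25 from shControl (interval -1.40 to -0.34, adjusted p = 0.245, edgeR) and -0.87 ± 0.25 from shLINE_Orf1 (adjusted p = 0.422). From shLINE_Orf2 it was -0.83 ± 0.25, with an adjusted p of 0.237 in edgeR and 0.0115 in limma-voom, where 10.2% of all genes passed. The counts behind these values were 44 to 66 per library in shLINE_Orf1+LINE-1 and 89 to 114 in shControl.

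Rab3gap1 and Rab3gap2 form the complex that inactivates Rab3 proteins, and Rab3gap1 was the steadier of the pair. Rab3gap1 (chromosome 1, 127868773 to 127943868) ranged from 32.4 to 34.9 CPM in shControl and from 28.7 to 39.5 CPM over all libraries. Its largest difference from shControl was 0.15 ± 0.10 in log2, in shLINE_Orf1+LINE-1 (interval -0.06 to 0.36, adjusted p = 0.747, edgeR). Rab3gap2 (chromosome 1, 185204117 to 185286759) varied more within groups, with 69.3, 42.7 and 60.1 CPM in shControl and 28.6, 53.8 and 49.4 CPM in shLINE_Orf1. The lowest value of each of these groups belongs to the library that stands apart, and without both libraries the means were 64.7 and 51.6 CPM. The difference of Rab3gap2 in shLINE_Orf1 was -0.39 ± 0.20 (interval -0.82 to 0.05, adjusted p = 0.507, edgeR). Iars2 and an antisense gene overlap Rab3gap2 on the other strand, and 2 small RNA genes lie within it.

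Rab3il1, an exchange factor that also serves Rab8 (chromosome 19, 10001669 to 10038380), ranged from 3.78 to 7.65 CPM. All of its group pairs overlapped, and its means ran from 4.65 ± 1.08 CPM in shLINE_Orf2 to 6.25 ± 1.25 in shLINE_Orf1. Against shControl its largest difference was -0.37 ± 0.23 in log2, in shLINE_Orf2 (interval -0.85 to 0.11, adjusted p = 0.890, edgeR).

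**Figure D3:**
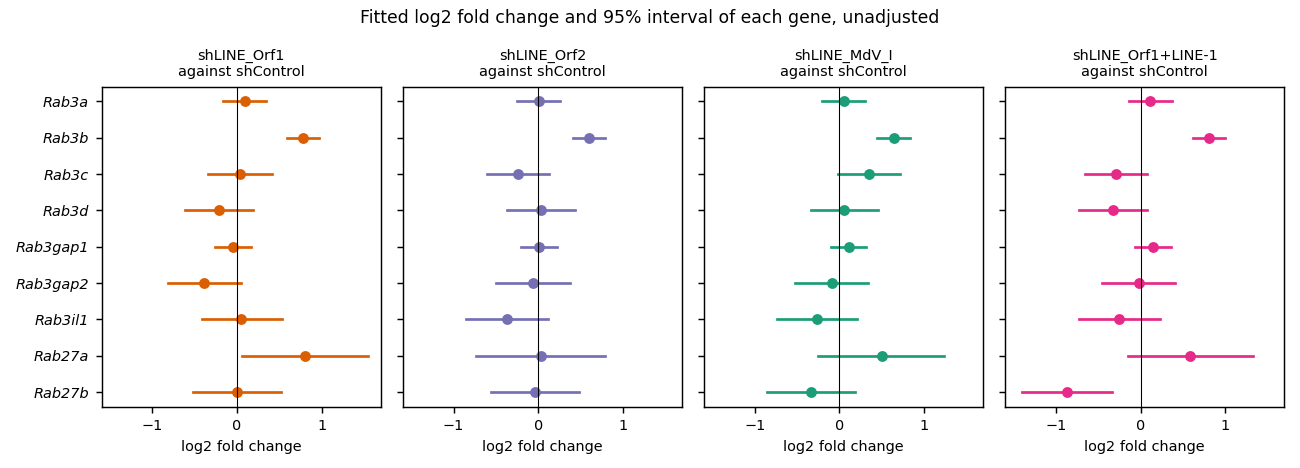
Log2 fold change of each gene against shControl (horizontal axis) in the edgeR fit, 1 panel per group; points are estimates and lines unadjusted 95% intervals. Rab3b lies at 0.60 to 0.81 in all 4 panels. It was chosen with the control libraries, so its intervals are no test. The intervals of most other genes span 0.

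Across the members, the median log2 difference from shControl was 0.03 in shLINE_Orf1, 0.01 in shLINE_Orf2, 0.06 in shLINE_MdV_I and -0.02 in shLINE_Orf1+LINE-1, where the median over all genes was -0.01 in the first 3 and -0.02 in the last. The libraries did not overlap those of shControl for 2 of the 9 members in shLINE_Orf1 (Rab3b and Rab27a, both higher), where 9.28% of all genes were separate in either direction. In shLINE_Orf2 they were separate for 2 members (Rab3b higher, Rab3c lower; 12% of all genes). In shLINE_MdV_I 4 members were separate (Rab3b, Rab3c and Rab3gap1 higher, Rab27b lower; 14.9%), and in shLINE_Orf1+LINE-1 3 were (Rab3b higher, Rab3c and Rab27b lower; 16.8%). Rab3b is in each of these counts against shControl. It was chosen with the control libraries, so nothing is read from its part in them. Among the hairpin groups, shLINE_Orf1+LINE-1 was separate from shLINE_Orf1 for 1 member, where 17.4% of all genes were, and from shLINE_Orf2 for 2 (26.5%) and from shLINE_MdV_I for 3 (27.2%). shLINE_Orf2 was separate from shLINE_Orf1 for 2 members (14.2%), and shLINE_MdV_I from shLINE_Orf1 for 1 (19.2%) and from shLINE_Orf2 for 2 (17.5%). Rab3b is also in the counts of shLINE_Orf2 against shLINE_Orf1 and of shLINE_Orf1+LINE-1 against shLINE_Orf2. Libraries of these comparisons helped to choose it. In the 6 comparisons among the hairpin groups no member passed the adjusted p of 0.05 in edgeR. Of all genes, 0% passed between shLINE_Orf1+LINE-1 and shLINE_Orf1 and between shLINE_Orf2 and shLINE_Orf1, 0.687% between shLINE_MdV_I and shLINE_Orf1, and 0.112% between shLINE_MdV_I and shLINE_Orf2. For shLINE_Orf1+LINE-1 the shares were 0.238% against shLINE_Orf2 and 0.68% against shLINE_MdV_I. At an unadjusted p under 0.05, 1 member and 1680 genes passed in the first of these comparisons and 1 member and 1729 genes in the second. In the other 4 comparisons 0 to 2 of the 8 members other than Rab3b passed at that level, where 5.46% to 16.4% of all genes did. With DESeq2 and with limma-voom no member passed in the first 3 of the 6. Of all genes, 0.132%, 0.826% and 2.85% passed there with DESeq2, and 2.64%, 5.5% and 11.2% with limma-voom.

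The genes whose pattern was most like that of Rab3b were sought among 9542 genes whose mean log2 CPM was 3 or more, by the Pearson correlation of log2 CPM over 15 libraries. They were Necap2 (0.929), an adaptor of clathrin-coated vesicles, Cbs (0.926), the cystathionine synthase, Atp6v1b2 (0.926), a subunit of the proton pump of lysosomes and secretory vesicles, Lamp1 (0.921), a lysosomal membrane protein, and Atp1b1 (0.920), a subunit of the sodium pump. The correlations are descriptions of points that share groups and libraries. Each of the 5 genes was higher than in shControl in all 4 hairpin groups, by less than Rab3b. They were picked for following Rab3b over these same libraries, so their direction is part of the choice. In shLINE_Orf1 the log2 difference of Atp6v1b2 was 0.59 ± 0.09 and that of Necap2 0.30 ± 0.07. The other members, which were not picked by their likeness, had correlations from -0.403 (Rab27b) to 0.509 (Rab27a).

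The neighbours of Rab3b on chromosome 4 had smaller differences from shControl. Txndc12 ends 16936 bases before Rab3b, and Kti12, which lies within Txndc12, 29650 bases before it. After it come Nrd1, 57331 bases away, and Osbpl9, whose end overlaps that of Nrd1 on the other strand. In shLINE_Orf1 their log2 differences from shControl were 0.21 ± 0.14 (Txndc12), -0.12 ± 0.12 (Kti12), -0.20 ± 0.12 (Nrd1) and 0.17 ± 0.12 (Osbpl9). The value of Txndc12 leans on shLINE_Orf1 replicate 1, the library that stands apart. In shLINE_Orf1+LINE-1 they lay between -0.14 and 0.11, where Rab3b was at 0.81.

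**Figure D4:**
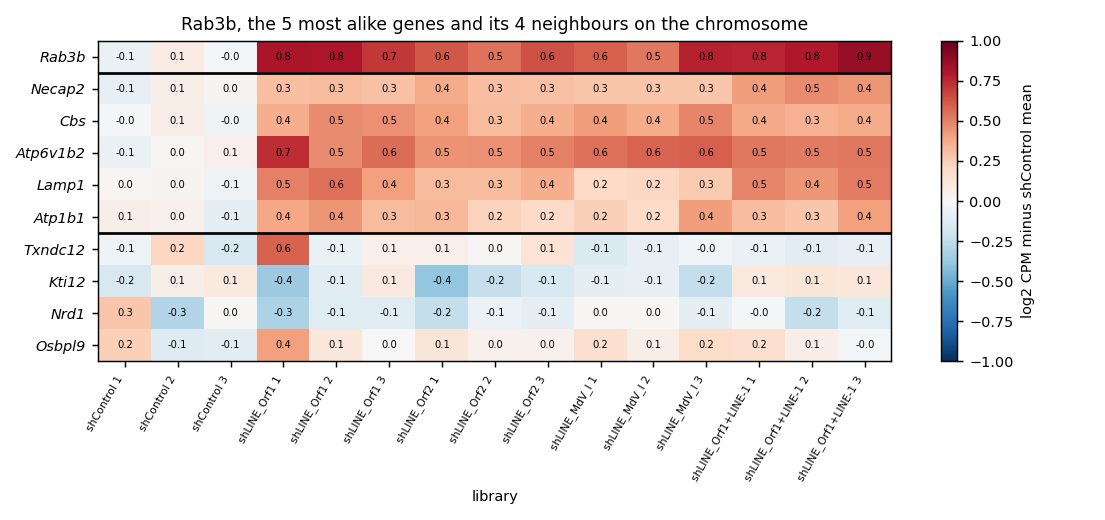
Log2 CPM of each library (columns) minus the mean of shControl, for Rab3b, the 5 genes most like it and its 4 neighbours (rows); colour and printed value give the difference. Rab3b and the 5 genes, which were picked for their likeness to it, are above 0 in every hairpin library. The neighbours scatter around 0.

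The proteins that work with Rab3 and Rab27 were taken from 7 lists with 91 genes, of which 84 were tested. They hold effectors, exchange factors and GTPase activators, prenylation and recycling proteins, other Rab proteins of secretion, the vesicle fusion machinery, the exocyst and the cargo of dense core vesicles. In shLINE_Orf1 against shControl, 1 of the 84 passed the test and was lower, and in shLINE_Orf2 and in shLINE_Orf1+LINE-1 none passed (edgeR, adjusted p of 0.05). At an unadjusted p under 0.05, 7 of the 84 passed in each of these 3 comparisons, where 10.5%, 7.01% and 8.76% of all genes did, so that the listed genes stood near the background. With DESeq2 2, 0 and 0 of the 84 passed in shLINE_Orf1, shLINE_Orf2 and shLINE_Orf1+LINE-1, where 1.41%, 1.22% and 1.41% of all genes did. With limma-voom 6, 0 and 2 passed, where 4.21%, 2.53% and 3.58% of all genes did. The gene that was lower in shLINE_Orf1 was Chml, an escort protein that presents Rab proteins for prenylation. It stood at 8.66, 6.31 and 7.42 CPM in shControl and at 3.62, 3.78 and 3.25 CPM in shLINE_Orf1, without overlap. The log2 difference was -1.07 ± 0.19 (adjusted p = 0.0345, edgeR). Chml did not pass without shControl replicate 1 (adjusted p = 0.139) or 3 (0.165), without shLINE_Orf1 replicate 1 (0.0599), 2 (0.063) or 3 (0.119), or with the fit limited to the groups compared (0.938). Of all genes, 0.0324% to 0.239% passed in these fits without a library and 0.00694% in the limited fit, against 0.178% in the main fit. The log2 difference of Chml lay between -1.11 and -0.95 in them.

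In shLINE_MdV_I against shControl, 5 of the 84 genes rose and none fell, where 0.258% of all genes rose. These were Cplx1, the complexin that clamps the fusion machinery, Snap25, a membrane SNARE of exocytosis, and 3 genes of the dense core vesicle: Ptprn, Scg3 and Vgf. Ptprn, a membrane protein of these vesicles, stood at 4.66, 5.47 and 4.25 CPM in shControl and at 12.2, 10.6 and 11.9 CPM in shLINE_MdV_I. Its log2 difference was 1.27 ± 0.18 (adjusted p = 0.00422, edgeR). Cplx1 stood at 14.8, 14.9 and 16.4 CPM in shControl and at 34.1, 29.6 and 35.0 CPM in shLINE_MdV_I. Its log2 difference was 1.10 ± 0.12 (adjusted p = 0.000414, edgeR). Cplx1 was also above shControl without overlap in shLINE_Orf1 (0.44 ± 0.12), shLINE_Orf2 (0.30 ± 0.12) and shLINE_Orf1+LINE-1 (0.33 ± 0.12), and did not pass there. Of all genes 9.28%, 12% and 16.8% were separate from shControl in these groups. Ptprn was above it without overlap in shLINE_Orf1+LINE-1 (0.60 ± 0.18, no pass) and overlapped it in shLINE_Orf1 and shLINE_Orf2. Ptprn and Cplx1 passed in this comparison under all 17 alternatives, and the other 3 under 9 or 10.

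Snap25 rose from 4.37 ± 0.255 to 7.76 ± 0.122 CPM (log2 difference 0.83 ± 0.15, adjusted p = 0.0182, edgeR). It was also above shControl without overlap in shLINE_Orf1 (0.36 ± 0.15) and shLINE_Orf2 (0.37 ± 0.15), with no pass. In shLINE_Orf1+LINE-1 it overlapped shControl. In shLINE_Orf2 Scg3 was below shControl without overlap (-0.18 ± 0.09, no pass). Scg3, a granin that gathers cargo in the granule, rose from 33.5 ± 3.01 to 47.1 ± 1.61 CPM (0.49 ± 0.09, adjusted p = 0.0211). Vgf, a precursor of secreted peptides, rose from 0.694 ± 0.382 to 2.78 ± 0.937 CPM (2.0 ± 0.41, adjusted p = 0.0398). Snap25 lost its pass without any 1 of the 6 libraries compared, with adjusted p of 0.0505 to 0.0982. Scg3 and Vgf lost theirs without any 1 of the shLINE_MdV_I libraries, with 0.0916 to 0.112 for Scg3 and 0.0789 to 0.228 for Vgf, and for Scg3 also without shControl replicate 3 (0.0703), and for Vgf without shControl replicate 1 (0.171) or 2 (0.151).

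**Figure D5:**
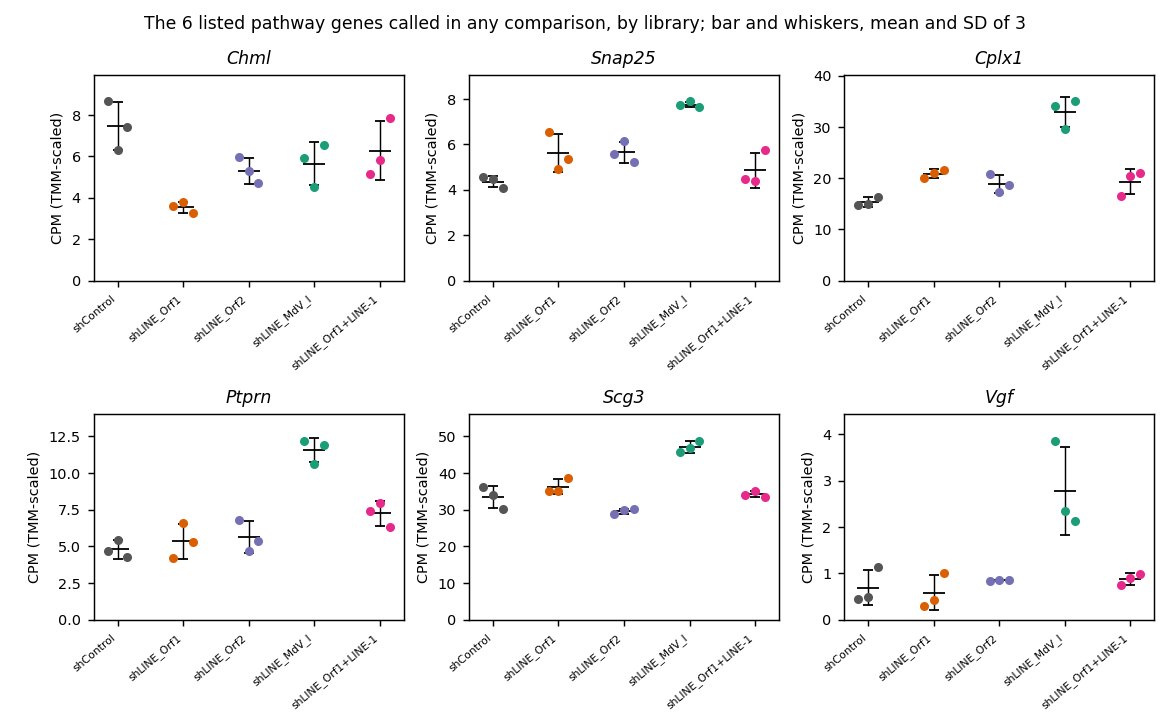
CPM (linear axes from 0) of the 6 listed genes that passed the test in any comparison, by library; points are libraries, the bar and whiskers the mean and SD of 3. Chml is lowest in shLINE_Orf1, and Snap25, Cplx1, Ptprn, Scg3 and Vgf are highest in shLINE_MdV_I.

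Genes of these lists also differed between shLINE_MdV_I and the other hairpin groups. Of the 84 tested, 3 passed against shLINE_Orf1, 3 against shLINE_Orf2 and 2 against shLINE_Orf1+LINE-1. Of all genes 0.687%, 0.112% and 0.68% passed in these comparisons. Against shLINE_Orf1, Ptprn (1.11 ± 0.18 in log2, adjusted p = 0.0115), Cplx1 (0.65 ± 0.12, 0.0178) and Vgf (2.24 ± 0.42, 0.0249) were higher in shLINE_MdV_I (edgeR). Against shLINE_Orf2, Ptprn (1.04 ± 0.18, adjusted p = 0.0329), Scg3 (0.67 ± 0.09, 0.00589) and Cplx1 (0.80 ± 0.12, 0.0101) were higher. shLINE_Orf1+LINE-1 was lower than shLINE_MdV_I for Scg3 (-0.46 ± 0.09, adjusted p = 0.0279) and Cplx1 (-0.77 ± 0.12, 0.0063). These comparisons share the shLINE_MdV_I libraries. Each of these passes was lost without at least 1 of the libraries, and fewer of all genes passed in those fits as well. Without shLINE_MdV_I replicate 1, 0.0259% of all genes passed against shLINE_Orf1. There the log2 differences of Ptprn, Cplx1 and Vgf were 1.08, 0.64 and 1.94. Against shLINE_Orf1, the passes of Ptprn (adjusted p = 0.0732), Cplx1 (0.12) and Vgf (0.164) were lost without shLINE_MdV_I replicate 1, that of Cplx1 also without replicate 3 (0.0751), and that of Vgf also without replicate 2 (0.0725) or shLINE_Orf1 replicate 1 (0.0673). Against shLINE_Orf2, Ptprn was lost without shLINE_MdV_I replicate 1 (0.197), 2 (0.0694) or 3 (0.149) or shLINE_Orf2 replicate 2 (0.295) or 3 (0.155). Cplx1 was lost without shLINE_MdV_I replicate 1 (0.0834) or 3 (0.0806) or shLINE_Orf2 replicate 2 (0.117) or 3 (0.0594), and Scg3 without shLINE_MdV_I replicate 3 (0.0626) or shLINE_Orf2 replicate 2 (0.0576). Between shLINE_Orf1+LINE-1 and shLINE_MdV_I, Scg3 was lost without any 1 of the 6 libraries (0.109 to 0.159), and Cplx1 without shLINE_Orf1+LINE-1 replicate 1 (0.06). In the other 3 comparisons among hairpin groups 0 listed genes passed with edgeR, and 7 to 10 had an unadjusted p under 0.05, where 9% to 11.4% of all genes did. With DESeq2 0 or 1 of them passed there (0.132% to 1.77% of all genes), and with limma-voom 2 to 7 (2.64% to 10.2%).

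Over the dense core vesicle list, 11 of 14 genes tested were higher in shLINE_MdV_I than in shControl, with a median log2 difference of 0.44, where that of all genes was -0.01. Of all genes, 52.4% were negative in that comparison. The lists were chosen with earlier results of these data known. The median of the dense core vesicle list was 0.03 in shLINE_Orf1, -0.05 in shLINE_Orf2 and 0.14 in shLINE_Orf1+LINE-1. For the 25 genes of the fusion machinery the medians ran from 0.04 to 0.08 against shControl in the 4 groups, and for the exocyst, led in abundance by Exoc4, from -0.07 to -0.01. For the 12 effectors tested, led by Rims3, the median was -0.23 in shLINE_Orf1, with 10 of 12 negative and none past the test, where 51.4% of all genes were negative. It was -0.08, -0.03 and 0.09 in shLINE_Orf2, shLINE_MdV_I and shLINE_Orf1+LINE-1. In shLINE_Orf1 the low value of Rims3 is that of replicate 1, which stands apart (9.7 CPM, against 16.5 and 16.7 in the others and 15.9 to 19.6 in shControl). Without the 2 libraries that stand apart the log2 difference of Rims3 went from -0.29 to -0.15, the median of the effectors was -0.32 and 10 of 12 were negative. The exchange factors and activators, led by Fam45a, and the other Rab proteins, led by Rab10, had medians between -0.09 and 0.07, and the 7 prenylation and recycling proteins between -0.15 and -0.1. Levels of Rab10, which acts in exocytosis and recycling, were 426 ± 67.3 CPM in shControl and 364 to 399 CPM on average elsewhere.

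Beside these genes, the summed endocrine markers were higher and the summed astrocyte markers lower in shLINE_MdV_I than in shControl, while the neuronal sums overlapped. The 4 endocrine markers summed to 5.52 to 6.77 CPM in shControl and 8.33 to 9.91 CPM in shLINE_MdV_I. In shControl, Chga made up 5.07 ± 0.509 CPM of that sum and Pomc 1.09 ± 0.327, and Ins1 was listed at 0 in every library. The 8 neuronal markers, most of whose sum is Map2, gave 341 to 523 CPM in shControl and 439 to 465 CPM in shLINE_MdV_I, and the 5 astrocyte markers 649 to 722 and 464 to 527 CPM. The astrocyte sum was also below shControl in shLINE_Orf2 (535 to 623 CPM), and overlapped it in shLINE_Orf1 and shLINE_Orf1+LINE-1. Chga stands in the dense core vesicle list as well, and Snap25 in both the neuronal and the fusion list. Their part in the values of the vesicle genes was not tested.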

How the data were processed

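RNA of 15 libraries of sorted mouse neural progenitor cells was measured. The authors deposited a table of expected counts per transcript, not normalized; the submitters' processing notes name RSEM, cutadapt and mm10, with versions not given in the sources used here, and the labels' protocols name a SMART-seq2-type library. Of 111462 transcripts, 110115 were matched by ID to GENCODE M21 (GRCm38), summed per gene and rounded. The others held 0.595% to 0.650% of the counts of a library and were left out, as was 1 blank row.

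edgeR 4.0.16 (R 4.3.3) was fitted with 1 model of the 5 groups: filterByExpr with a minimum count of 10, TMM scaling, robust quasi-likelihood test, Benjamini-Hochberg adjustment over 15141 genes, called at an adjusted p under 0.05. CPM use TMM-scaled library sizes, and log2 CPM a prior count of 2. Transcript levels per length (TPM) divide counts by annotated length. SE is the log2 fold change over the root of its F statistic. The fit was tested on simulated data. At the depths used, CPM of genes with few counts, such as Rab27a, are the least precise.

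Members and lists were chosen with earlier results of these data known. Text names all members and every gene of the lists that was called in a comparison (in a list with none, the most abundant gene). It also names the 5 genes most like Rab3b and 2 neighbours on each side. A second deposited table holds the authors' own mixed model: an estimate and its error, a score whose scale is not named, with p-values, per the file headers. Alternatives were RLE or no scaling, no filter or 50 counts in 3 libraries, thinned libraries, DESeq2 1.42.0, limma-voom 3.58.1 with quality weights, only the compared groups, the replicate number as a block, a covariate from the final number (1 or 12) of each description, and libraries left out.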

Additional observations from a re-analysis of the deposited data

How the results depend on the processing

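Rab3b kept its direction against shControl under all 17 alternatives of each comparison, with log2 differences of 0.71 to 0.82 in shLINE_Orf1, 0.57 to 0.64 in shLINE_Orf2, 0.57 to 0.70 in shLINE_MdV_I and 0.78 to 0.86 in shLINE_Orf1+LINE-1. These ranges are a description. The libraries of shControl, shLINE_Orf1 and shLINE_Orf2 helped to choose the gene, so its direction there is part of the choice. The 1 member that passed against shControl was Rab3b, from whose passes nothing is read, since the control libraries helped to choose it. With the fit limited to the groups compared, 0 members passed in shLINE_Orf1, shLINE_Orf2 and shLINE_MdV_I. In that setting 0.00694%, 0.0276% and 0.2% of all genes passed. In shLINE_Orf2 against shControl, leaving out 1 library gave 0 to 1 members, with 0 without shControl replicate 1 or 3 or any 1 library of shLINE_Orf2. Of all genes, 0.0195% to 0.0842% passed in these fits, against 0.192% with all libraries. With the replicate block 0 members passed in that comparison, and the block left the member count of the other 9 comparisons as it was. Against shControl it gave 0 in place of 1 listed gene in shLINE_Orf1 and 3 in place of 5 in shLINE_MdV_I. Of all genes, 0.0264% passed with the block in shLINE_Orf1, 0.0264% in shLINE_Orf2 and 0.363% in shLINE_MdV_I against shControl. Without it these shares were 0.178%, 0.192% and 0.594%. The passes lost with the replicate block were those of Chml (adjusted p = 0.105), Scg3 (0.0619) and Vgf (0.0531) against shControl, Ptprn in shLINE_MdV_I against shLINE_Orf2 (0.101) and Scg3 in shLINE_Orf1+LINE-1 against shLINE_MdV_I (0.0757). The replicate numbers did not pair the libraries: 3 of 30 same-numbered pairs had a correlation over 0.1 (-0.271 to 0.18), and 4 of 15 libraries correlated best with their own number.

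Among hairpin groups, where 0 members passed, limma-voom called 1 member (Rab3c) in shLINE_MdV_I against shLINE_Orf2, 2 (Rab3b and Rab27b) in shLINE_Orf1+LINE-1 against shLINE_Orf2 and 3 (Rab3b, Rab3c and Rab3d) in shLINE_Orf1+LINE-1 against shLINE_MdV_I, where it called 3.44%, 10.2% and 11% of all genes. With only the compared groups, 1 member passed in shLINE_Orf1+LINE-1 against shLINE_Orf2 (Rab3b; 7.09% of all genes) and 1 against shLINE_MdV_I (Rab3c; 8.21%). Nothing is read from the passes of Rab3b against shLINE_Orf2, whose libraries helped to choose it. Against shLINE_MdV_I DESeq2 and the fit without the 2 libraries that stand apart also gave 1 (Rab3c; 2.32% and 3.73% of all genes). The cause was not tested. Of 1350 values of the other 8 members under alternatives, 99 changed sign, none of them called in the main comparison, and 7 passed. Listed genes in shLINE_MdV_I against shLINE_Orf1 numbered 17 with limma-voom and 18 with the description number as covariate, against 3, where 11.2% and 13.6% of all genes passed, against 0.687%. With no scaling factor the differences of Rab3b from shLINE_Orf1 were 0.11 in shLINE_Orf1+LINE-1, -0.10 in shLINE_Orf2 and -0.04 in shLINE_MdV_I. Low counts limit Rab27a and Rab27b.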

Other observations

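The authors' deposited table of a mixed model for an effect of young LINE-1 lists all 9 members, with an adjusted p of 1 for each as for all of its 17921 genes. In the authors' deposited table Rab3b has an estimate of -0.194 with an error of 0.802 (p = 0.824, authors' model), on a scale that is not named. Rab3a has the smallest p of the members in the authors' deposited table, with an estimate of 1.14 and an error of 0.491 (p = 0.0372, authors' model), where 2.66% of its genes have a p under 0.05. Which libraries entered that model is not known from the labels or headers, and the values are printed as they stand.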
